A study of Mus musculus with 18 samples.

Results

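The functions of the genes whose mRNAs carried 5-methylcytosine (m5C) were compared between 3 bisulfite libraries labelled OGD/R 3 h and 3 untreated control bisulfite libraries. These are 6 of the 9 bisulfite libraries with a deposited list of sites, the other 3 being OGD/R 1.5 h, and of the 18 samples of the series. A site was counted where it was called in at least 2 of the 3 libraries of a group and lay, on its strand, in an exon of a protein-coding RefSeq transcript. By this rule 1530 of 21013 annotated genes held a site in either group, 1160 in control and 962 after OGD/R 3 h, with 592 in both.

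All libraries are labelled as neurons grown from the cerebral cortex of C57BL/6 mouse fetuses at day 18. The OGD/R group was kept without oxygen and glucose for 3 h and returned to normal medium for 24 h, which is a culture model of ischemia with reperfusion, and the control group was not treated. The supplement of the study names the libraries sequencing pool replicates, so the 3 libraries of a group were counted as 1 sample and no test was run between the groups. Every SD below is the spread over 3 libraries of such a pool, and neither the effect of the treatment nor the spread between cultures can be read from it.

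m5C is a methyl mark that NSUN-family methyltransferases and DNMT2 place on RNA. It is long known from tRNA and rRNA, and in mRNA it is bound by the export adaptor ALYREF and by the cold-shock protein YBX1. Bisulfite turns unmethylated cytosine into uracil, so a cytosine that is still read as cytosine is called as m5C. A cytosine left unconverted would be called in the same way, and how complete the conversion was is unknown. An mRNA can be called only where enough reads cover it, so a gene without a site was not shown to be unmethylated or unexpressed, and a gain of sites cannot be told apart from a gain of reads on the mRNA. The read depth is unknown.

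The 3 control libraries held 3800 to 4146 mRNA sites each and the 3 OGD/R 3 h libraries 4733 to 5269. Any pair of control libraries had 40% to 40.9% of the mRNA sites found in either in common, OGD/R 3 h pairs 42.8% to 45.4%, and pairs across the groups 6.84% to 7.31%. Marker genes of the nervous system carried almost no site. Of 40 neuronal marker genes, 10 astrocyte and 11 oligodendrocyte genes, the sole one with a site in either group was Cnp, an oligodendrocyte enzyme, with 1 site in control. Over all annotated genes, 1530 of 21013 had one. Genes of the intestinal lining, such as the mucus protein genes Fcgbp and Muc2 and the brush border genes Myo1a and Vil1, carried sites in both groups. A site in either group was held by 9 of 18 goblet cell mucus genes and 12 of 21 brush border enzyme genes.

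A gene was called gained where OGD/R 3 h had at least 2 sites more than control and at least 2-fold as many, lost in the mirror case, and kept where both groups had sites and neither limit was met. Of the 1530 genes, 324 were gained (21.2%), 319 lost (20.8%) and 370 kept (24.2%). A further 333 genes had a single site in control alone and 184 a single site in OGD/R 3 h alone. At the edge of the call, 75 gained genes went from 0 to 2 sites and 146 lost genes from 2 to 0. The count of lost genes fell to 207, 181 and 199 when control replicate 1, 2 or 3 was left out, since a site then had to be called in both of the libraries that remained. Kept refers to the number of sites alone and not to their positions. Of the 370 kept genes, 208 (56.2%) shared no position between the groups, and 487 positions were shared in all, 15.2% of the control sites and 12.5% of the OGD/R 3 h sites.

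The following stretches show what the calls look like in mRNAs that differed most over all genes or in their list, and in mRNAs that kept positions. Each is 29 nt of RefSeq mRNA sequence (mm10), read 5′ to 3′ and written as DNA, around the site with the highest summed score in the group named. Capitals mark the cytosines called as m5C in that group. The first set is from mRNAs that gained sites (OGD/R 3 h).
Tmsb4x, 5′ UTR, chrX:167209132-167209160, minus strand: atCCgCagCggCttCtgagCagatCagaC
Hbb-bs, CDS, chr7:103827819-103827847, minus strand: CtgCtgtCtCtggCCtgtggggaaaggtg
Cyba, 5′ UTR, chr8:122432885-122432913, minus strand: gctgcagagttggaCCgggCtgCtgCgtg
Rhob, 5′ UTR, chr12:8499969-8499997, minus strand: agttcggttgtcgtCgtCtgCgCCCCtgt
Calr, 5′ UTR, chr8:84846848-84846876, minus strand: cgcgtccgtcaataCCgCagagCCgCtgC
Rpl8, CDS, chr15:76904910-76904938, plus strand: aagCtggCCCgagCCtcCgggaaCtacgc
Fcgbp, CDS, chr7:28093475-28093503, plus strand: agcagatgtgtggtCtgtgcggggattac
The second set is from mRNAs that lost sites (control).
Kalrn, CDS, chr16:34053624-34053652, minus strand: ggttggggCgaagaCgagccagatgaaga
Ppp1r12a, CDS, chr10:108241175-108241203, plus strand: ggagCatgagaaggCtgatgaggaggaag
Rbm6, CDS, chr9:107791770-107791798, minus strand: aaaggagccatggtCtggagattCacgCC
Sgpl1, 5′ UTR, chr10:61147547-61147575, minus strand: ggccagCggagcCtCtgcggggaaagaag
Trim2, CDS, chr3:84190803-84190831, minus strand: accccggacggcagCgtggCCgaCggaga
The third set is from mRNAs that kept sites, with the same position called in both groups (capitals from control).
Canx, CDS, chr11:50297084-50297112, minus strand: agaagatggtgttaCtggcagtcaagatg
Ncor1, CDS, chr11:62373169-62373197, minus strand: gctagagatgaagaCgtggtagtggctga
Lars2, 3′ UTR, chr9:123461954-123461982, plus strand: taccaCagggataaCtggCttgtggCggC
Tmem38b, 3′ UTR, chr4:53860694-53860722, plus strand: tCtCtggagCtaagCagggtCgggCCtgg
All 9 cytosines of the Tmsb4x stretch and all 6 of the Hbb-bs stretch were called, whereas in the Fcgbp, Canx and Ncor1 stretches the sole call was the central one.

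Tmsb4x, which encodes the actin-binding peptide thymosin beta 4, rose from 1 to 39 sites. Control replicates 1, 2 and 3 held 3, 1 and 1 Tmsb4x sites and OGD/R 3 h replicates 39, 39 and 38. Fcgbp, an IgG Fc-binding protein of mucus, rose from 10 to 64 sites, with 12, 13 and 10 in the control libraries and 72, 69 and 66 in the OGD/R 3 h libraries. The groups did not overlap for either gene, as for 418 of the 1530 genes with OGD/R 3 h above control (27.3%) and 421 with OGD/R 3 h below (27.5%). Actb, the cytoplasmic beta-actin, rose from 30 to 71 sites with 11 positions in common. The other genes among the 10 largest rises were Eef1a1 (0 to 28 sites), the beta-globin gene Hbb-bs (0 to 25), Oat (8 to 30), Itm2b (18 to 39), Pigr (5 to 26), the calcium-binding chaperone Calr (0 to 18) and the beta-catenin gene Ctnnb1 (5 to 22), whose difference Rpl8 (2 to 19) and H1f2 (6 to 23) equalled. The libraries of the groups did not overlap in any of the 10, but these genes were chosen for their difference between the same libraries.

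Kalrn, a guanine nucleotide exchange factor for small GTPases, fell from 12 sites to 0. The control libraries held 10, 8 and 13 Kalrn sites and the OGD/R 3 h libraries 1, 1 and 0. Ppp1r12a, the targeting subunit of myosin phosphatase, fell from 12 to 2 sites, with 17, 15 and 12 sites in the control libraries and 7, 2 and 5 in the OGD/R 3 h libraries. Rbm6, an RNA-binding splicing regulator, had 9, 9 and 10 sites in the control libraries and 0 in each OGD/R 3 h library. The remaining largest falls were in Sgpl1 (11 to 1 site), Trim2 (12 to 3), Ncor1 (32 to 24), Hnrnpab (18 to 10), Cep350 (9 to 1), the protease inhibitor gene Spint2 (13 to 6) and Arid4a (7 to 0). Of these, Ncor1 and Hnrnpab were kept by the rule, and the Ncor1 libraries overlapped, with 34, 35 and 38 sites in control and 37, 27 and 33 after OGD/R 3 h.

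**Figure D1:**
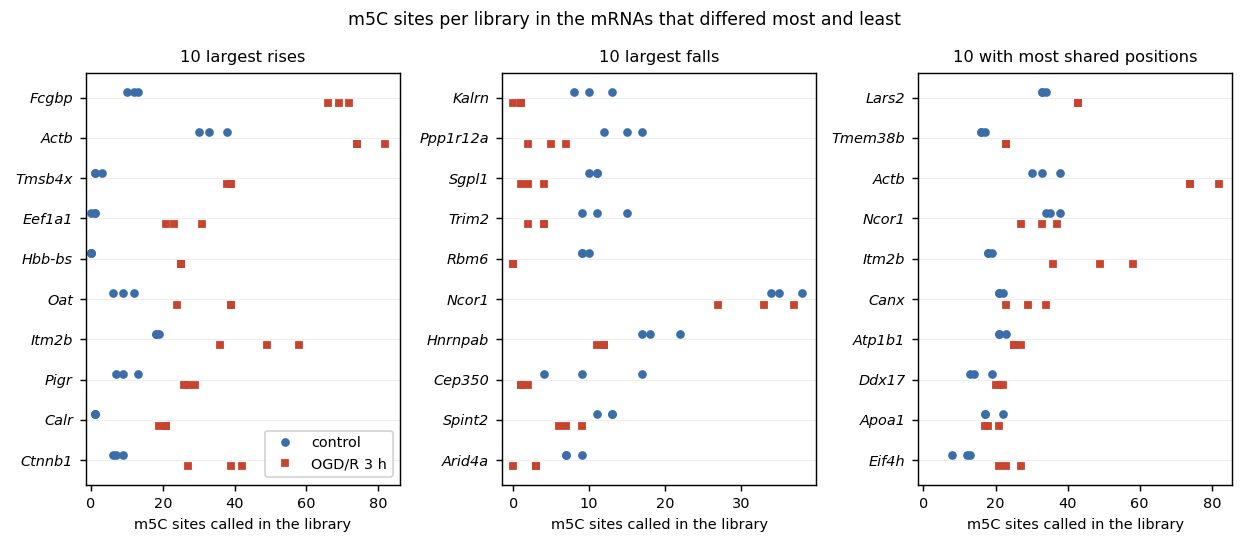
m5C sites called in each library (x axis, number of sites) in the 10 mRNAs with the largest rise, the 10 with the largest fall and the 10 with most positions called in both groups. Each circle is a control library and each square an OGD/R 3 h library. The Fcgbp libraries sit between 10 and 13 in control and between 66 and 72 after OGD/R 3 h, and the Ncor1 libraries overlap.

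The positions differed in kind between these mRNAs. In Fcgbp, the 64 sites of OGD/R 3 h were spread over 7679 of the 7930 nt of the mRNA and formed 58 separate runs, a run being sites no more than 10 nt apart. In Tmsb4x, 26 of the 39 sites lay in the 5′ UTR and 7 in the 3′ UTR. In Actb, 17 of the 71 sites of OGD/R 3 h lay in the 5′ UTR, where control had 0. The 12 Kalrn sites of control lay in 452 nt of the coding sequence of a 15439-nt mRNA.

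**Figure D2:**
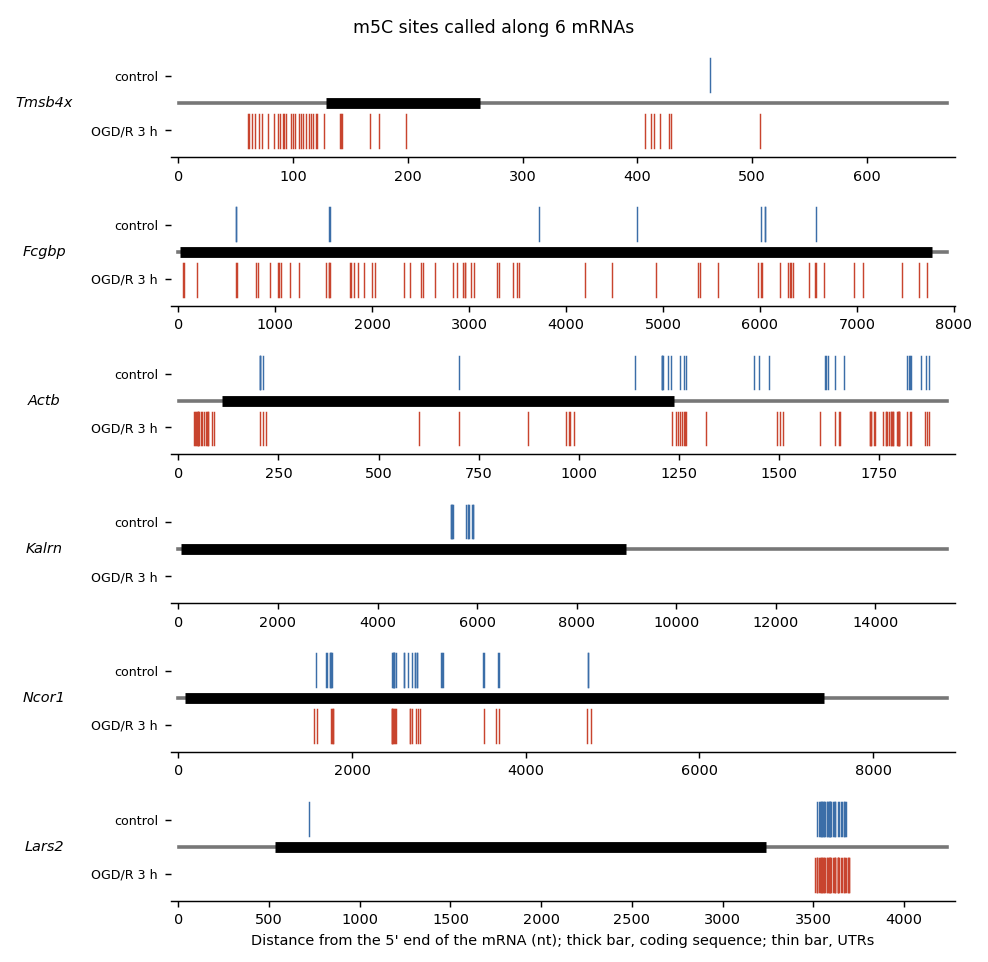
Sites along 6 mRNAs (x axis, nt from the 5′ end), with control above and OGD/R 3 h below the transcript, whose coding sequence is the thick bar. Tmsb4x and Fcgbp filled with sites in OGD/R 3 h, the 12 Kalrn sites were called in control alone, Ncor1 kept 8 positions and Lars2 kept 32.

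The genes were then read by function, in 60 lists of families, pathways and cell type markers. Of the 1530 genes with a site, 663 (43.3%) were in a list. The share of a library's mRNA sites that fell in a list corrects for the larger number of sites in OGD/R 3 h. Over the 43 lists with at least 20 sites in the groups together, the libraries of OGD/R 3 h all lay above those of control in 25 lists (58.1%) and all below in 9 (20.9%). A share must fall elsewhere when it rises in one list, and a gene can be in more than one list. Over all genes the median difference in sites was 0.0. Counts of gained, lost and kept genes in a list stand beside 21.2%, 20.8% and 24.2% of all genes with a site.

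**Figure D3:**
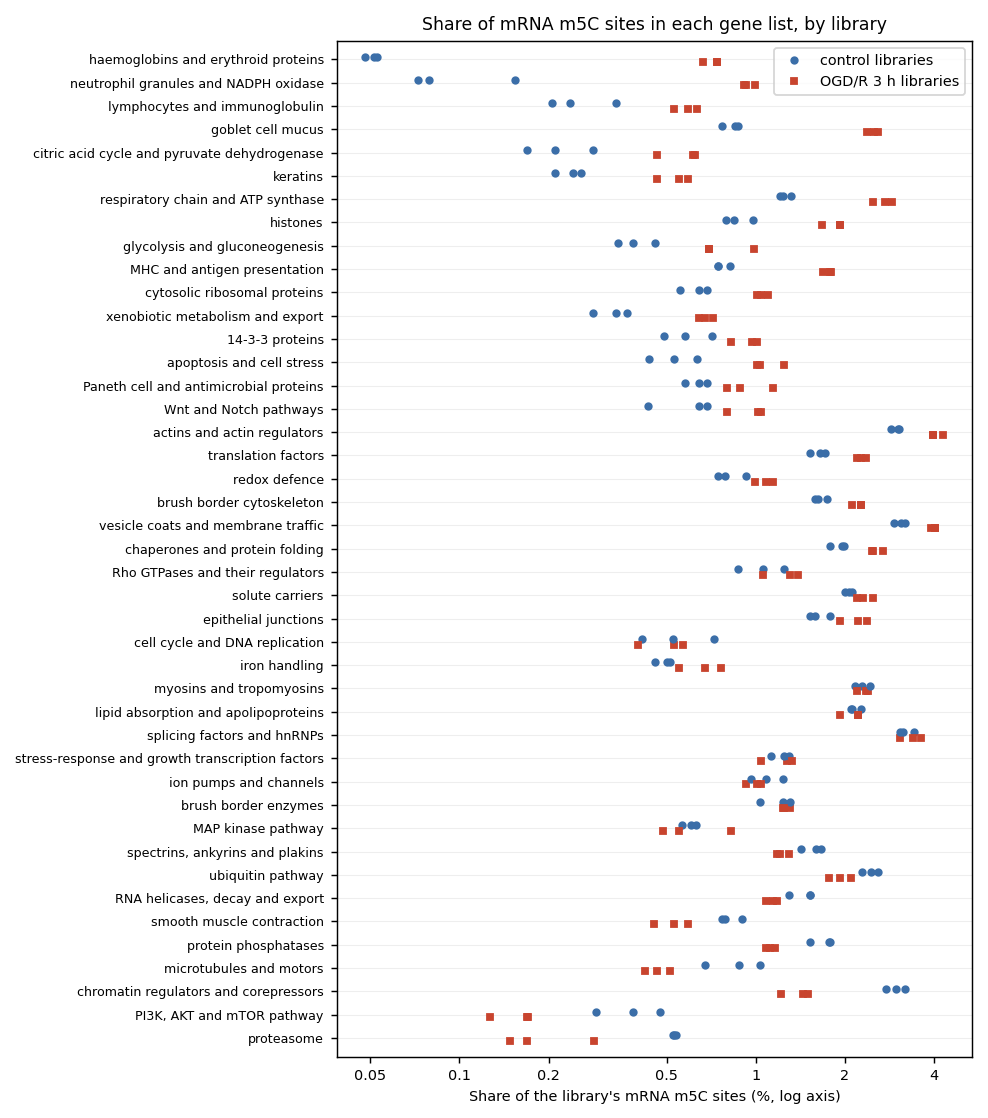
Share of each library's mRNA m5C sites that lay in each gene list (x axis, percent, log axis), for 43 lists ordered by the ratio of the shares. Circles are the 3 control libraries and squares the 3 OGD/R 3 h libraries. Haemoglobin, neutrophil and mucus genes stand far to the right in OGD/R 3 h, chromatin regulators and the proteasome to the left, and splicing factors and myosins overlap.

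Genes of blood cells gained sites in OGD/R 3 h. The 2 beta-globin genes, whose protein carries oxygen in red cells, had no site in any control library, and each OGD/R 3 h library held 25 sites in Hbb-bs and 6 in Hbb-bt. Of the 25 Hbb-bs sites, 11 lie in a window that Hbb-bt also holds, so the genes cannot be told apart there. With Tfrc, the transferrin receptor (1 to 4 sites), and Car2, a carbonic anhydrase with a single control site, the erythroid list went from 2 to 35 sites. The log2 ratio of the erythroid list's shares was 3.84 and ranged from 1.15 to 4.27 over the alternatives. All 6 neutrophil genes with a site were gained, and the list went from 3 to 46 sites. The log2 ratio of its shares was 3.65 and ranged from 2.00 to 4.03 over the alternatives. The study lists immunoprecipitation primers for Ngp, Anxa1, Prr13 and Cyba of this list, and reports Anxa1, Cyba and also Hbb-bs as hypermethylated after OGD/R. The members were chosen with earlier results of these data known, so a gain of all 6 is no independent support. S100a8 and S100a9, the subunits of the granulocyte protein calprotectin, rose from 0 to 9 and from 0 to 7 sites, with the same number in each of the 3 OGD/R 3 h libraries and 0 in each control library. Cyba, the p22phox subunit of the NADPH oxidase, rose from 1 to 11 sites, with 11 in each OGD/R 3 h library. Anxa1 (0 to 6), Prr13 (2 to 8), which was put in the list by hand, and the granule protein gene Ngp (0 to 5) made up the rest. These mRNAs were called densely, and whether unconverted cytosines were among the calls was not tested. The 25 Hbb-bs sites lay in 94 nt and formed 2 runs, and 25 of the 26 cytosines near them were called. Of the cytosines within 14 nt of a site, 72.9% were themselves called in the erythroid list and 51.1% in the neutrophil list in OGD/R 3 h, against 18.5% over all genes with a site. Markers of macrophages and microglia and of endothelium had no site in either group.

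Genes of IgA transport and of antigen presentation rose with them. Pigr, the receptor that carries IgA across epithelia, held 7, 13 and 9 sites in the control libraries and 26, 27 and 29 in the OGD/R 3 h libraries. Antigen presentation genes went from 26 to 73 sites, and their share from 0.770% ± 0.0397 to 1.76% ± 0.0591 (SD, n = 3 libraries). Of 12 such genes with a site, 4 were gained, 6 kept and none lost. The gene of the list with most sites was Calr, which encodes a chaperone that helps to load MHC class I, and without it the log2 ratio of the shares was 0.79. H2-D1, an MHC class I heavy chain, rose from 1 to 14 sites and Cd74, the invariant chain of MHC class II, from 2 to 8, while the light chain gene B2m had 5 in both groups. H2-D1 and H2-K1 hold windows in common, 3 of 15 and 2 of 17 of their sites. Of the 5 interferon response genes with a site, none was gained, and Stat2 was lost (3 to 1).

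Mucus genes of goblet cells held 27 sites in control and 109 after OGD/R 3 h, a 3.31-fold rise of their share. The 3 control libraries gave 0.849%, 0.772% and 0.868% of their sites to them and the OGD/R 3 h libraries 2.37%, 2.58% and 2.51%. Beside Fcgbp, the gel-forming mucin gene Muc2 rose from 2 to 11 sites, the membrane mucin gene Muc3 from 2 to 10, the lectin gene Zg16 from 1 to 8 and the trefoil factor gene Tff3 from 0 to 5. Muc13 was kept (8 and 9 sites), and Clca1, a secreted metalloprotease of mucus, fell from 4 to 0. Without Fcgbp, the log2 ratio of the shares was 1.12 in place of 1.73. In the Paneth cell list, the antimicrobial lectin gene Reg3g rose from 0 to 5 sites, and the lysozyme gene Lyz1 was kept (7 and 10). Of 13 such genes, 5 were gained and none lost. The other gained genes were the alpha-defensins Defa22, Defa24, Defa30 and Defa39, of which the last 3 hold windows that other alpha-defensins also hold.

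The absorptive machinery changed less. Of 12 brush border enzymes, 2 were gained, 4 lost and 4 kept, and the libraries overlapped, with 1.19% ± 0.143 of the sites in control and 1.27% ± 0.0368 after OGD/R 3 h. The lactase gene Lct rose from 2 to 9 sites and Ace from 2 to 5. The peptidase genes Dpp4 (3 to 0), Enpep (4 to 1) and Mep1b (4 to 1) and the glutamyltransferase gene Ggt1 (7 to 2) fell. Apolipoprotein and lipid absorption genes also overlapped, at 2.16% ± 0.0940 and 2.12% ± 0.173. Within them, Apob, the structural protein of chylomicrons, rose from 4 to 15 sites and Mttp, which loads it with lipid, from 1 to 6, while Apoa1 kept 18 sites with 6 positions in common and Dgat1 had 17 in both groups with 3 in common. Brush border cytoskeleton genes rose from 50 to 82 sites. Of 16 with a site, 5 were gained, among them the actin bundler gene Vil1 (6 to 14) and the protocadherin genes Cdhr2 (0 to 5) and Cdhr5 (2 to 6), and 1 was lost. Keratin genes rose from 6 to 21 sites, all of them in Krt8, Krt19 and Krt20.

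Energy metabolism was among the functions with most gained genes. Of 31 genes of the respiratory chain and ATP synthase with a site, 14 were gained (45.2%), 1 was lost and 4 were kept. Their share rose from 1.25% ± 0.0569 to 2.70% ± 0.203, and 24 of the 31 had more sites in OGD/R 3 h. Atp5e, a small subunit of ATP synthase, rose from 1 to 15 sites, with 1, 3 and 1 sites in the control libraries and 14, 15 and 17 in the OGD/R 3 h libraries. Cox4i1, a subunit of cytochrome c oxidase, rose from 8 to 19, and the complex I genes Ndufb8 and Ndufb11 from 0 to 6 and from 0 to 5. Of the 13 genes encoded by the mitochondrial genome, a list added after the values were seen, 8 had a site, 4 were gained and none lost. COX1 rose from 2 to 10 sites and ND2 from 0 to 9. The log2 ratio of their shares was 2.08, and 3.13 or 3.20 without control replicate 2 or 3.

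Glycolysis genes rose from 11 to 32 sites with 5 of 8 gained and none lost. The aldolase gene Aldoa rose from 3 to 16. Genes of the citric acid cycle rose from 6 to 22 sites, with Dlst at 3 and 9 and Mdh2 at 0 and 5. The libraries of the groups did not overlap in either list, but the size of the difference moved with the libraries used. Without OGD/R 3 h replicate 1, the log2 ratio of the shares was 0.59 in place of 1.25 for glycolysis and 0.72 in place of 1.59 for the citric acid cycle, and without OGD/R 3 h replicate 2 it was 0.51 for the latter. Of the hypoxia response list, 3 of 24 genes had a site. Ldha, lactate dehydrogenase A, rose from 0 to 2 sites, and Vegfa, the vascular growth factor, fell from 3 to 1.

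Both ribosomal protein and translation factor genes held a larger share of the sites after OGD/R 3 h. Of 15 cytosolic ribosomal protein genes with a site, 6 were gained, 1 was lost and 6 were kept, and the list rose from 17 to 45 sites. Rpl8 alone went from 2 to 19, with 2, 6 and 3 sites in the control libraries and 18, 19 and 20 in the OGD/R 3 h libraries, and without it the log2 ratio of the shares was 0.51 in place of 1.12. Translation factor genes rose from 54 to 94 sites and from 1.63% ± 0.0973 to 2.27% ± 0.0724 of the libraries' sites, although 5 were gained and 6 lost. The elongation factor gene Eef1a1 rose from 0 to 28 and the initiation factor genes Eif4g2 and Eif4h from 0 to 10 and from 9 to 19. The genes lost were Eif3a (5 to 2), Eif3b (3 to 0), Eif3c, Eif3l, Eif4a3 and Eif4e (each 2 to 0), of which Eif3a, Eif3b, Eif3c and Eif3l encode subunits of the scaffold complex eIF3. Eef1a1 is uncertain, since 16 of its 28 sites lie in windows that its pseudogenes also hold, and both Eif4e sites match a pseudogene. Eef1a1 held 28 of the 94 translation factor sites of OGD/R 3 h, and the list without it was not examined. Over the 19 genes of the list the median difference in sites was 0. The log2 ratio of the list's shares was 0.51 and ranged from 0.06 to 0.84 over the alternatives. The 4 aminoacyl-tRNA synthetase genes had 5 sites in control and 0 after OGD/R 3 h.

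Histone genes and the regulators of chromatin moved in opposite directions. Histones rose from 28 to 85 sites, with 0.978%, 0.796% and 0.842% of the sites of the control libraries and 1.67%, 1.92% and 1.92% of those of OGD/R 3 h. Of 14 histone genes with a site, 9 were gained (64.3%), 2 lost and 2 kept. The linker histone gene H1f2 rose from 6 to 23 sites, H1f3 from 6 to 16 and H1f5 from 1 to 10, while H1f4 fell from 4 to 1. H2bc18 rose from 0 to 9 and the variant H3.3 gene H3f3b from 2 to 7. The histone sites of OGD/R 3 h stood close together, with 26.6% of the cytosines near a site called, and the log2 ratio of the shares was 0.54 in place of 1.32 after sites within 10 nt were merged.

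Chromatin regulators fell from 96 to 44 sites. Of 29 with a site, 15 were lost (51.7%), 2 gained and 3 kept, and the number of sites fell in 24. Their share was 2.97% ± 0.215 in control and 1.39% ± 0.146 after OGD/R 3 h. The lost genes included the acetyltransferase genes Crebbp (4 to 0) and Ep300 (2 to 0), the helicase gene Atrx (6 to 2), the remodeller genes Chd2, Chd7 and Chd8, the methyltransferase gene Kmt2c (3 to 0), the insulator protein gene Ctcf (2 to 0) and Arid4a. The Crebbp libraries held 2, 6 and 5 sites in control and 0, 1 and 0 after OGD/R 3 h. Ncor1, the nuclear receptor corepressor with most sites in the list, was kept, and without it the log2 ratio of the shares was -1.96 in place of -1.41. Where sites needed a score of 10 or more, it was -2.50. The demethylase gene Kdm1a (0 to 5) was among the genes gained.

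Other lists tied to transcription also lost sites. RNA polymerase II and Mediator genes went from 12 sites to 2, with Med13 at 4 and 0 and the elongation factor genes Supt6 and Supt16 at 2 and 0 each. Zinc finger genes with Zfp symbols, a list added after the values were seen, had 20 sites in control and 3 after OGD/R 3 h, and 11 of 13 genes had fewer sites, led by Zfp592 (5 to 0) and Zfp608 (3 to 0). The log2 ratio of their shares was -3.02, but -2.41 without control replicate 2, -4.23 without OGD/R 3 h replicate 2 and -0.50 at a score of at least 10. Transcription factors of growth and stress responses were even, with 5 gained, 5 lost and 5 kept of 22. Each is 22.7% of them, near the 21.2%, 20.8% and 24.2% of all genes. Jun (0 to 4), Fos (2 to 5), Klf4 (2 to 7), Cdx1 (0 to 5) and Stat3 (1 to 3) were gained, whereas Jund (4 to 1), Junb (2 to 0), Atf2 (3 to 0), Stat2 and Atf7ip, a cofactor that is no transcription factor itself, were lost.

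**Figure D4:**
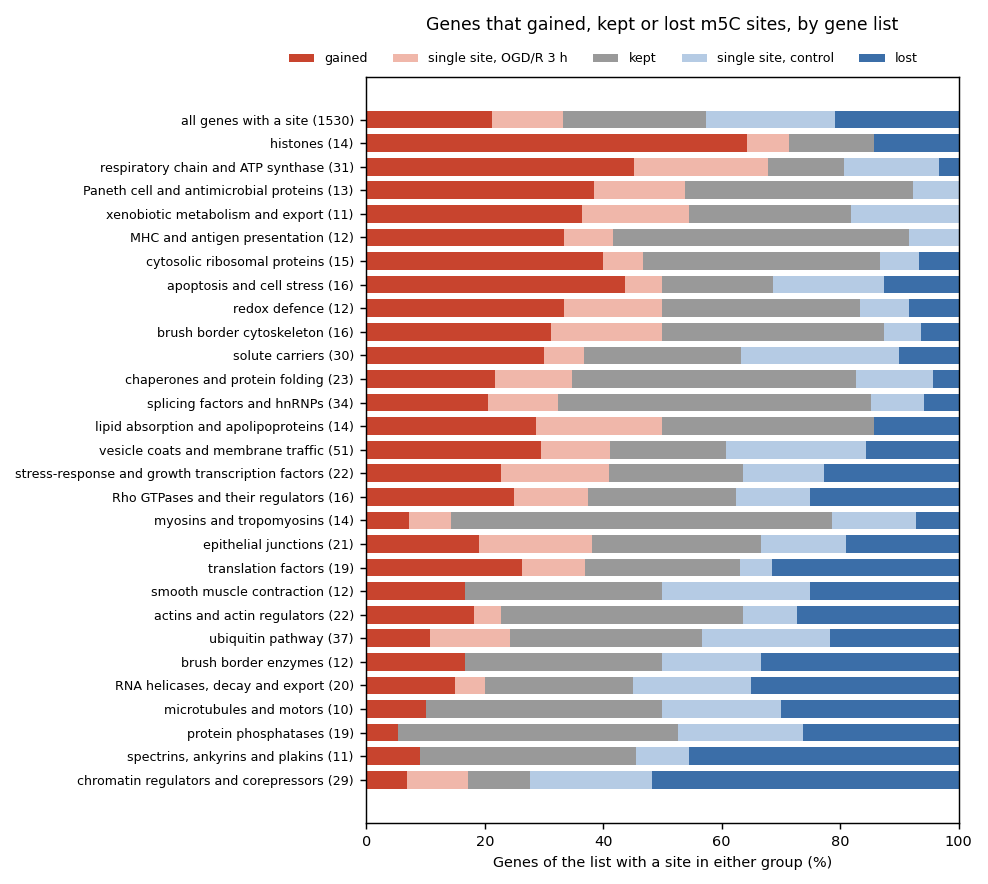
Percent of the genes with a site (x axis) that were gained, kept, lost or had a single site in 1 group alone, for each list with at least 10 such genes, whose number is in parentheses, and for all 1530 genes. Histones (64.3% gained) and the respiratory chain (45.2% gained) stand at the top and chromatin regulators (51.7% lost) at the bottom.

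Of 9 genes in the proteasome list, 6 were lost and none gained. The control libraries gave 0.540%, 0.531% and 0.526% of their sites to it and the OGD/R 3 h libraries 0.285%, 0.148% and 0.169%. Psmd1, Psmd2 and Psmd3 of the regulatory particle fell from 4, 2 and 2 sites to 0 each, the ATPase gene Psmc3 from 2 to 0 and the core genes Psma4 and Psma6 from 2 to 0. The kept gene Psme3ip1 encodes a partner of a proteasome activator and no subunit, and without it the log2 ratio of the shares was -2.61 in place of -1.73. In the ubiquitin pathway 8 of 37 genes were lost (21.6%, against 20.8% of all genes), 4 gained and 12 kept, and the list went from 76 to 66 sites and from 2.44% ± 0.145 to 1.93% ± 0.158 of the libraries' sites. The ligase genes Trim2 (12 to 3) and Huwe1 (4 to 0) were among those lost and the ubiquitin gene Ubb (1 to 5) among those gained. Of 6 Ubb sites, 5 lie in repeated or copied sequence. Of 23 chaperone genes, 5 were gained (21.7%, against 21.2% of all genes), 1 lost and 11 kept. Calr held 1 site in each control library and 21, 21 and 19 in the OGD/R 3 h libraries. The endoplasmic reticulum chaperone gene Hspa5 rose from 0 to 3, its partner Canx kept 20 and 22 sites with 7 positions in common, and Hsp90b1 kept 9 and 12.

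Apoptosis and cell stress genes rose from 18 to 41 sites. They took 0.533% ± 0.0971 of the sites of the control libraries and 1.10% ± 0.132 of those of the OGD/R 3 h libraries. Of 16 with a site, 7 were gained (43.8%), 2 lost and 3 kept. Without Tmbim6, the gene with most sites, the log2 ratio of the shares was 0.59 in place of 0.90. Among the members gained, Tmbim6 (0 to 8) and Bcl2l1 (0 to 4) are known as inhibitors of cell death. Vdac2 (0 to 3), Pdcd6ip (1 to 5), Anxa1 (0 to 6) and Hspa5 (0 to 3) were gained as well. The lost genes were the pore-forming Bak1 (2 to 0) and Ppp1r15b (5 to 1), a phosphatase subunit that reverses the integrated stress response. Of 12 redox genes, 4 were gained (33.3%, against 21.2% of all genes). Among them were the selenoprotein gene Selenop (4 to 11), the thioredoxin gene Txn1 (4 to 9) and the peroxidase gene Gpx1 (2 to 6). Glrx5 was lost (3 to 0), and the superoxide dismutase gene Sod1 was kept (7 and 6, with 4 positions in common).

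Membrane traffic genes gained more than they lost, 15 against 8 of 51, with 101 and 161 sites. These are 29.4% and 15.7% of the list, against 21.2% and 20.8% of all genes. The gene with most sites was the membrane protein gene Itm2b (18 to 39), and without it the log2 ratio of the shares was 0.27. At a score of at least 10 the log2 ratio of their shares was -0.09 in place of 0.39. Arf6, a small GTPase of the plasma membrane, rose from 2 to 11 and Arf5 of the Golgi from 0 to 8, with 6, 8 and 8 Arf5 sites in the OGD/R 3 h libraries and 0 in each control library. The COPII coat gene Sec31a was kept (10 and 17 sites, 5 positions in common), and the dynamin gene Dnm2 (4 to 0) and the GTPase genes Rab18 and Rab21 (each 3 to 0) were lost. Signalling lists went both ways. The 14-3-3 genes rose from 16 to 38 sites, with Ywhae at 8 and 20 and Ywhaz at 2 and 14, but Ywhah fell from 5 to 1. Heterotrimeric G protein genes, a list added later, had 3 of 7 gained and none lost, led by Gna11 (13 to 29), but at a score of at least 10 the log2 ratio was -0.50 in place of 0.55. Phosphatase genes fell from 56 to 39 sites with 5 lost and 1 gained, and genes of the PI3K, AKT and mTOR pathway from 14 to 6, with Insr, Irs2, Foxo3 and Pik3c2b each at 2 and 0. At a score of at least 10 the log2 ratio of the phosphatases was -1.44 in place of -0.81, and without the PI3K gene with most sites, Eif4ebp2, that of the pathway was -2.99 in place of -1.51. The small GTPase gene Rhob rose from 0 to 12 sites, with 12 in each OGD/R 3 h library, while the GTPase-activating genes Arhgap31, Arhgap35 and Arhgap11a fell to 0.

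Of 14 myosin and tropomyosin genes, 9 were kept, 1 gained and 1 lost, and the libraries gave 2.29% ± 0.125 of their sites to them in control and 2.31% ± 0.103 after OGD/R 3 h. With sites called in all 3 libraries of a group, the log2 ratio was -0.87 in place of 0.04. Myo1a, the brush border myosin, had 18 and 22 sites and Myh9, a non-muscle myosin heavy chain, 17 and 25. The actin list rose from 104 to 183 sites through Actb and Tmsb4x. In it 6 genes were lost against 4 gained, and after sites within 10 nt were merged the log2 ratio of its shares was -0.07 in place of 0.53. Motor and microtubule genes fell from 27 to 17 sites, with the dynein heavy chain gene Dync1h1 at 6 and 2 and the kinesin gene Kif21a at 4 and 0. Spectrins and plakins had 5 of 11 genes lost, among them Ank3 (6 to 2) and Sptbn1 (3 to 0), but without control replicate 3 the log2 ratio of their shares was 0.10 in place of -0.38, and without OGD/R 3 h replicate 1 or 3 it was -0.99 or -1.09. In smooth muscle genes 3 were lost and 2 gained, with 25 and 21 sites and a log2 ratio of -0.54, or -1.28 at a score of at least 10.

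Splicing factors were mostly kept in number of sites and not in position. Of 34 with a site, 18 were kept (52.9%), 7 gained and 2 lost, and the shares overlapped at 3.21% ± 0.191 and 3.35% ± 0.280. Of the control sites of these genes, 16.2% were also called after OGD/R 3 h, against 15.2% over all genes. Ddx17, an RNA helicase, kept 14 and 18 sites with 7 positions in common, Hnrnpul2 11 and 11 and Pcbp1 9 and 8. Hnrnpu rose from 9 to 19 and Ddx5, the close relative of Ddx17, from 0 to 6. Genes of RNA decay fell, with Upf1, Smg6 and Xrn2 (each 3 to 0) among the 7 genes lost, and the list as a whole went from 46 to 39 sites. Of the 15 genes that write, read or erase m5C in RNA, 3 had a site. Alyref rose from 0 to 2, Ybx1 had 3 in both groups with no position in common, and Tet3, which oxidizes m5C, had 1 in OGD/R 3 h.

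The mRNAs with most shared positions stand apart from the rest. Lars2, a mitochondrial leucyl-tRNA synthetase gene, shared 32 positions and Tmem38b 16, all of the latter in the 3′ UTR within 75 nt in control and 95 nt after OGD/R 3 h. Both are uncertain as mRNA sites. Of 44 Lars2 sites, 25 lie in windows found elsewhere, among them the long noncoding RNA gene Gm15564, and 5 of 23 Tmem38b sites lie in windows that annotated rRNA genes hold. In Lars2, 95.6% of the cytosines near a site were called in OGD/R 3 h and in Tmem38b 76.7%. Of all 487 shared positions, 28 (5.75%) had a copy of their window, against 1.75% of the control sites and 3.13% of the OGD/R 3 h sites, and of the 455 shared positions outside Lars2, 9 (1.98%) had one. After Lars2, Tmem38b and Actb, most positions were shared in Ncor1 (8), in Itm2b, Canx, the sodium pump subunit gene Atp1b1 and Ddx17 (7 each) and in Apoa1 and Eif4h (6 each).

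mRNA length, which the rule did not use, moved with the calls. The median mRNA was 2481 nt long in gained genes, 2980 nt in kept genes and 4337 nt in lost genes. Of 124 genes with an mRNA under 1000 nt, 50 were gained (40.3%) and 14 lost (11.3%), and of 421 genes with an mRNA of 5000 nt or more, 59 were gained (14%) and 124 lost (29.5%). The median was 779 nt for histones, 864 nt for the respiratory chain and 7507 nt for chromatin regulators. The median of all genes with a site was 3186 nt. Some lists went the other way, as the proteasome list fell with a shorter median and iron handling and Wnt and Notch genes rose with 4319 and 6043 nt. Without Fth1, the gene with most sites, the log2 ratio of iron handling was -0.40 in place of 0.11. Without Ctnnb1, that of Wnt and Notch genes was -0.94 in place of 0.57. Over 43 lists the median length and the log2 ratio of the shares had a Spearman correlation of -0.63, where lists share genes and libraries. Among genes with mRNAs of 5000 nt or more, 14 of 26 chromatin regulators were lost, and among those under 1000 nt, 12 of 18 respiratory chain genes and 6 of 10 histone genes were gained. Of the respiratory chain genes with mRNAs of 1000 to 2000 nt, 1 of 11 was gained, where 30.6% of all genes of that length were. The part of mRNA length in the lists' differences was not tested.

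**Figure D5:**
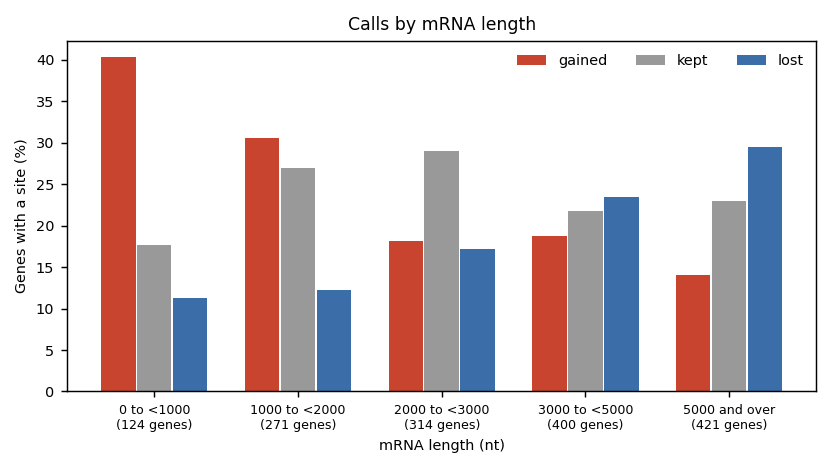
Percent of genes with a site (y axis) that were gained, kept or lost in 5 ranges of mRNA length (x axis, nt). The gained share falls from 40.3% to 14% and the lost share rises from 11.3% to 29.5% from the shortest to the longest mRNAs.

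The sites themselves differed in place and context. In gained genes, 31.2% of the OGD/R 3 h sites lay in the 5′ UTR, 58.3% in the coding sequence and 10.5% in the 3′ UTR, and in lost genes 24.3%, 72.5% and 3.13% of the control sites did. A cytosine before a guanine (CG) made up 19.9% of the sites of gained genes and 29.8% of those of lost genes, and the CHH context, where H is A, C or T, 41.8% and 31.3%. Within the kept genes, CG made up 27.5% of the control sites and 23.9% of the OGD/R 3 h sites.

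Transporters, detoxifying enzymes and junctions were mixed. Of 30 solute carrier genes, 9 were gained, 3 lost and 8 kept, with the creatine transporter gene Slc6a8 at 10 and 23 sites and the sodium-glucose transporter gene Slc5a1 at 11 and 10. Slc9a3r1, a scaffold protein that is no carrier, is among the gained genes by its symbol, and the log2 ratio of the shares, 0.22, was -0.10 at a score of at least 10 and -0.11 without control replicate 1. Of 11 xenobiotic metabolism genes, 4 were gained and none lost, led by the cytochrome P450 gene Cyp4f14 (2 to 11), and the log2 ratio of 1.04 was -0.01 at a score of at least 10. Among 21 junction genes, 4 were gained and 4 lost (19% each, against 21.2% and 20.8% of all genes). The catenin genes Ctnnb1 and Ctnna1 (3 to 13) rose, Ctnnd1 (4 to 1), Tjp1 (4 to 2) and the lipoprotein receptor gene Lsr (6 to 0) fell, and Epcam was kept (7 and 9). Without Ctnnb1 the log2 ratio was -0.15 in place of 0.21.

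The OGD/R 1.5 h libraries, which the calls did not use, held a site in 170 of the 324 gained genes (52.5%), 192 of the 319 lost genes (60.2%) and 263 of the 370 kept genes (71.1%). Of the positions called after OGD/R 3 h alone in gained genes, 112 of 1928 (5.81%) were also called in OGD/R 1.5 h. Of those called in control alone in lost genes, 132 of 981 (13.5%) were, and of those of kept genes called in both groups, 135 of 334 (40.4%). The same share was 8.56% and 15.2% for positions of kept genes called after OGD/R 3 h alone and in control alone, and 45.9% for positions of lost genes called in both groups. Hbb-bs, Hbb-bt, S100a8, S100a9, Anxa1 and Ngp had 0 sites in each OGD/R 1.5 h library, as in each control library. The same held for some genes outside the blood cell lists, such as Rhob and Alyref, and the erythroid list as a whole had 1, 2 and 3 sites in the OGD/R 1.5 h libraries.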

How the data were processed

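m5C was measured by RNA bisulfite sequencing. The submitters' notes name CASAVA 1.8, Cutadapt 1.9.3 and STAR. By the study's methods, reads were aligned to mm10 with meRanGh and sites called in each library with meRanCall, with a minimum methylation level of 0.1 and a minimum of 10 reads over the cytosine. The labels say that treated (m5c) and mock data were both used. The score column of the site lists deposited by the authors, a whole number from 0 to 1000, has a scale that is not given in the sources used here, so the alternative with a score of 10 or more is a stricter list on an undefined scale. Levels and coverage were not used here. The 1.5 h, mock and input data entered no call. All 18059 mRNA sites of the 9 libraries lay on a cytosine of their strand in the reference.

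Sites in same-strand exons of RefSeq protein-coding transcripts (GRCm38) were counted per gene where called in at least 2 of 3 libraries (Python 3.11.15, numpy 2.4.6, pysam 0.24.0, samtools 1.23.1, matplotlib 3.10.9). The counting was tested on simulated sites. The 51-nt window of each site, with C read as T, was searched for elsewhere in the genome. No test was run. Genes named were, overall and in each list, those with the largest rise, the largest fall and most shared positions, and others were chosen after their values were seen. Some genes of the lists are not reported here. The members and lists were chosen with earlier results of these data known, and 6 lists were added after the values were seen. Alternatives changed the number of libraries, the score, the merging of close sites, the limits of a call and the libraries used.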

Additional observations from a re-analysis of the deposited data

Results flagged for a closer look

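The OGD/R 1.5 h libraries entered no comparison between control and OGD/R 3 h. Of 41 gene lists with at least 20 sites in OGD/R 1.5 h and control together, 10 had a share of mRNA sites above all 3 control libraries in all 3 OGD/R 1.5 h libraries, and this was not tested. The respiratory chain and ATP synthase rose from a mean of 1.25% in control to 2.33% in OGD/R 1.5 h, with 2.70% in OGD/R 3 h. Glycolysis genes had 0.395% and 0.657%, 14-3-3 genes 0.593% and 0.803%, and Wnt and Notch genes 0.587% and 0.868%. Membrane traffic genes had 3.07% and 3.98%, translation factors 1.63% and 1.94%, xenobiotic metabolism genes 0.330% and 0.436%, and iron handling genes 0.491% and 0.601%. Splicing factors had 3.21% against 3.83%, and spectrins, ankyrins and plakins 1.56% and 1.8%, the latter with 1.23% in OGD/R 3 h. Some lists moved the other way, with every OGD/R 1.5 h library below every control library. The mean share of histone genes dropped from 0.872% to 0.529%. That of antigen presentation genes dropped from 0.77% to 0.544%, and that of Paneth cell genes from 0.635% to 0.342%. Goblet cell mucus, redox and actin genes also lay below, goblet cell mucus barely (highest OGD/R 1.5 h library 0.77%, lowest control library 0.772%). The falling lists named so far lay above control after OGD/R 3 h, but others did not. Lipid absorption genes (2.16% to 1.28%), transcription factors of growth and stress (1.23% to 0.68%) and ion pumps (1.09% to 0.879%) overlapped control after OGD/R 3 h. Smooth muscle genes (0.821% to 0.602%) and the proteasome list (0.532% to 0.389%) stayed below control after OGD/R 3 h.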

How the results depend on the processing

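The count of gained genes was 324, and 182 at a score of at least 10, and it ranged from 231 to 409 when 1 library was left out. The count of lost genes was 319, and 184 with sites called in all 3 libraries, 547 with sites called in any library, 120 at a score of at least 10, 206 after sites within 10 nt were merged, 136 where at least 3 sites were asked for, and 181 to 378 when 1 library was left out. The count of kept genes was 370, and 590 with sites called in any library, and 303 to 352 with 1 library left out. At most 2 gained genes became lost in any alternative that changed the sites or libraries, and no lost gene became gained.

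Of 34 lists whose libraries did not overlap, 26 kept the direction of the log2 ratio of shares in every alternative that gave a value, 12 for haemoglobins and for the lymphocyte list and 13 for the others. In the lymphocyte list, Pigr, an epithelial receptor, held all 5 control sites and 26 of the 27 OGD/R 3 h sites. The direction of the log2 ratio turned at a score of at least 10 for xenobiotic metabolism (-0.01), solute carriers (-0.10), junctions (-0.32), membrane traffic (-0.09), Wnt and Notch (-0.50) and, of the lists added later, G proteins (-0.50). It turned with sites called in all 3 libraries for junctions (-0.43) and Wnt and Notch (-0.30), after merging for actins (-0.07), and without the gene with most sites for junctions (-0.15), iron handling (-0.40) and Wnt and Notch (-0.94). With 1 library left out, it ranged from -0.11 to 0.46 for solute carriers, from -0.05 to 0.13 for junctions, from -1.09 to 0.10 for spectrins and from -0.18 to 0.35 for iron handling. The cause was not tested. No paired analysis was possible because the 3 libraries of a group counted as 1 sample, so the counts and shares come from no test. Read depth is unknown, so a site that was not called may have had too few reads.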
